A study of Mus musculus with 19 samples.

Results

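The 10 genes described here, Gfap, Aqp4, Aldh1l1, Gja1, Gjb6, Sox9, S100b, Aldoc, Fgfr3 and Glul, are genes commonly used to mark astrocytes. They were found by symbol, and all 10 were present among the 20436 genes of the RNA and ribosome profiling tables. All 10 also had enough counts to be tested in both assays, where 12691 genes could be tested. Slices of hippocampus from wild-type male mice, aged 28 to 42 days, were exposed for 5 min to DHPG at 100 µM, an agonist of group I metabotropic glutamate receptors, or to artificial cerebrospinal fluid as vehicle (basal), and all slices were then placed in cycloheximide at 100 µg/ml to stop ribosomes in place. Slices of 6 mice were pooled for each replicate, and the slices of replicates 1 to 5 kept area CA3. RNA-seq gave the RNA level (4 basal and 5 DHPG libraries), and ribosome profiling gave ribosome-protected fragments, or RPFs (5 basal and 5 DHPG libraries), which count mRNA pieces shielded by ribosomes. The DHPG RNA library of replicate 5 has no basal partner.

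Astrocytes take up glutamate and potassium around synapses, turn glutamate into glutamine and return it to neurons, exchange water at their end-feet on blood vessels, and are joined into networks by gap junctions. In hippocampus their processes surround most excitatory synapses. The 10 genes cover these roles. Gfap encodes the intermediate filament protein of the astrocyte cytoskeleton and S100b a small calcium-binding protein. Aqp4 encodes the water channel of the end-feet, and Gja1 and Gjb6 encode connexin 43 and connexin 30, the gap junction proteins. Glul encodes glutamine synthetase, Aldoc the glycolytic enzyme aldolase C, and Aldh1l1 a folate enzyme. Sox9 is a transcription factor required for glial fate, and Fgfr3 is a receptor for fibroblast growth factors.

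Libraries held 4870813 to 7793244 counts in RNA and 5692064 to 22092434 in RPF. Levels are given as CPM, counts scaled to library size with the TMM factors of edgeR. On this scale the 10 genes together held 3473 to 3868 CPM in an RNA library, and 3937 to 6171 CPM in an RPF library. The slices are mixed tissue. Summed over a list of 15 neuronal markers, the level in basal slices was 7435 to 9351 CPM in RNA and 12974 to 13699 in RPF. The 10 astrocyte genes summed to 3473 to 3868 CPM in basal RNA. Such sums depend on the genes listed, and the further astrocyte genes described below summed to 18800 to 23278 CPM in basal RNA. Of 11 markers of choroid plexus and ependyma, which can be carried over with the ventricle wall, 8 were under 1 CPM on average in either assay, and Kcne2 had no count in RNA. In whole tissue, fewer cells of a type cannot be told apart from less RNA per cell, and this holds for every value below.

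To compare levels between genes, CPM were divided by length, using the transcript for RNA and the coding sequence without 30 bases at each end for RPF. Per kilobase, the enzyme Glul was the highest of the 10 genes in basal RNA at 529.6 ± 42.4 CPM (SD, n = 4), above 99.5% of genes in RNA and 99.7% in RPF. Aldoc followed at 384 ± 40.8 and Gfap at 183 ± 20.4, and the ranges of these 3 genes over libraries did not overlap. Fgfr3 (49.9 ± 10.2) and Gja1 (46.9 ± 4.28) came next with overlapping ranges. Aldh1l1 (31.4 ± 2.97), Aqp4 (23.2 ± 0.603), Gjb6 (18.4 ± 0.819) and S100b (10.8 ± 3.39) each lay apart from their neighbours. Sox9 was the lowest at 3.96 ± 0.763, above 27.5% of genes.

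The order of RPF levels per kilobase of coding sequence began alike, with Glul at 2226 ± 434 CPM (SD, n = 5) and Aldoc at 1203 ± 219. Behind them, Gfap (335 ± 35.3), Gja1 (310.3 ± 38.8), S100b (299 ± 34.3) and Aqp4 (223 ± 32.1) formed a run in which each overlapped the next. Sox9 (75.03 ± 16.3), Gjb6 (50.5 ± 11.7), Aldh1l1 (37.4 ± 4.36) and Fgfr3 (33.5 ± 2.67) formed another, with Fgfr3 now last. Sox9 thus stood above 81.2% of genes in RPF per length, and S100b above 94.8%, against 53.6% in RNA.

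**Figure D1:**
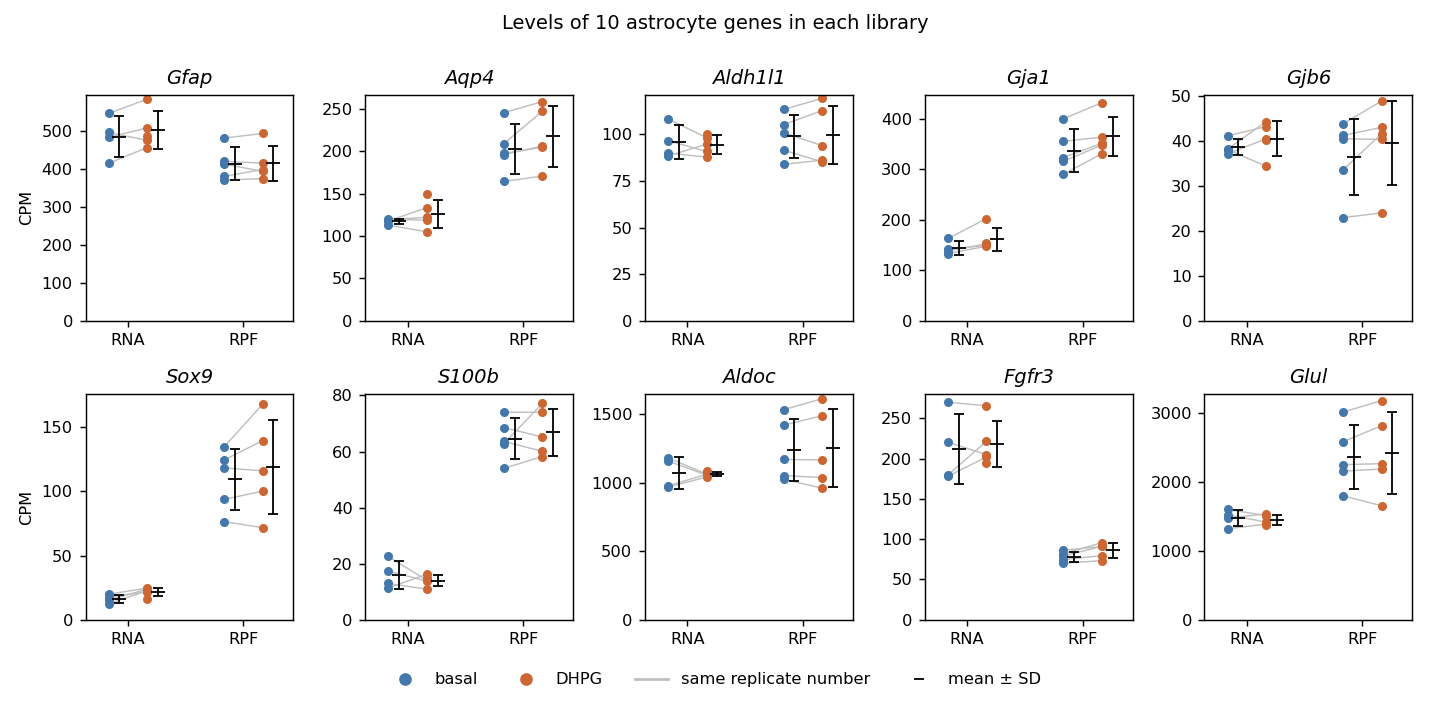
Levels in CPM of each of the 10 genes (panels) in RNA and RPF libraries, basal in blue and DHPG in orange. Points are libraries, grey lines join libraries of one replicate number, and bars give the mean ± SD. RPF of Sox9 lies between 71.8 and 168 CPM while its RNA lies between 12.6 and 24.7, and Fgfr3 has the opposite order.

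How the levels of RNA and RPF relate was described by the RPF to RNA ratio, the log2 RPF CPM less the log2 RNA CPM of one replicate, which is often called translation efficiency. Over 12691 genes its median in basal slices was -0.18 and the 5th and 95th percentiles were -1.92 and 1.55. Sox9 and S100b lay beyond the upper of these. The ratio of Sox9 was 2.29, 2.38, 2.55 and 3.39 in basal replicates 1 to 4 (mean 2.65 ± 0.50, SD, n = 4), above 99.3% of genes. That of S100b was 1.62, 2.67, 2.24 and 1.58 (2.03 ± 0.52), above 97.8%. Their ranges overlapped each other, and that of S100b did not reach down to the third gene, Gja1, at 0.99, 1.36, 1.498 and 1.12 (1.24 ± 0.23). Fgfr3 stood at the other end, at -1.36, -1.56, -1.64 and -1.12 (-1.42 ± 0.23), above only 11.7% of genes and apart from the next lowest, Gfap.

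The genes between these ends formed a continuous run in which each range overlapped the next. Aqp4 had a basal ratio of 0.78 ± 0.22 (SD, n = 4), Glul 0.62 ± 0.28, Aldoc 0.14 ± 0.16, Aldh1l1 -0.01 ± 0.11, Gjb6 -0.11 ± 0.41 and Gfap -0.29 ± 0.23. Of the connexins, Gja1 (0.99 to 1.498) lay above Gjb6 (-0.70 to 0.19) in every basal replicate.

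In edgeR's quasi-likelihood test of RPF against RNA in basal slices, with Benjamini-Hochberg adjustment over 12886 genes, 5 of the 9 genes other than Sox9 had a higher ratio than the bulk of genes that TMM sets to 0, and 1 had a lower one. Over all genes 35% were called higher and 35.2% lower at an adjusted p under 0.05, so a call was about as common over all genes as among these 9. The 9 were listed with earlier results of these data known, so these counts are description only. Sox9 is given without a test, since its RNA values in particular were known. Its fitted log2 difference was 2.84 (standard error 0.19). Among the genes tested it was 2.19 for S100b (0.20), 1.41 for Gja1 (0.13), 0.95 for Aqp4 (0.12), 0.78 for Glul (0.13) and 0.31 for Aldoc (0.11, edgeR adjusted p = 0.0318). For Fgfr3 it was -1.26 (0.12). Gfap, Aldh1l1 and Gjb6 did not pass, with 95% intervals of -0.36 to 0.10, -0.06 to 0.37 and -0.25 to 0.40. The call of Aldoc was lost without the replicate block (adjusted p = 0.0628 in edgeR) and without replicate 1, 2 or 4. Counted per length and less the median gene, the ratio of Aldh1l1, whose coding sequence fills 88.7% of its transcript, changed sign to -0.68, and that of S100b, whose coding sequence fills 18.6%, was 3.93, above that of Sox9 at 3.28.

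The ratio varied with base composition and length over all genes, and these were not corrected for. With genes split into 5 equal bins by the GC share of the coding sequence, the median ratio went from 0.34 in the lowest bin to -0.65 in the highest. Sox9 (64.1% GC), Gfap (58.6%) and Fgfr3 (58.5%) all belong to that highest bin, so Sox9 was high where the median of genes was low. From the bin of the shortest coding sequences, which holds S100b (276 bases) and Gjb6 (783 bases), to that of the longest, it went from 0.52 to -0.71. The part of composition and length in the ratio of single members was not tested.

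The bases around the start codon are shown for the genes at the ends of the order of ratios, as the mRNA sequence from which initiation begins. They were read 5′ to 3′ along the mRNA from GENCODE transcripts of the mm10 genome, with the start codon in capitals.
Sox9: tcgcgtATGa
S100b: cccgggATGt
Gfap: ggcaggATGg
Fgfr3: ggagccATGg
Most genes carry an A or a G at the third base before the start codon (86.9% of 11979 genes) and a G right after it (52.9%), and 45.9% have both. Fgfr3 and Gfap, with the lowest ratios of the 10, had both of these bases, S100b had only the first, and Sox9 had neither, as did 6.07% of genes. Gja1, with the third highest ratio, also had both, as did Glul and Gjb6, and Aldoc and Aldh1l1 had only the first, so these bases did not follow the order of the ratios. This is a description of the sequences, and no relation to the ratio was tested.

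**Figure D2:**
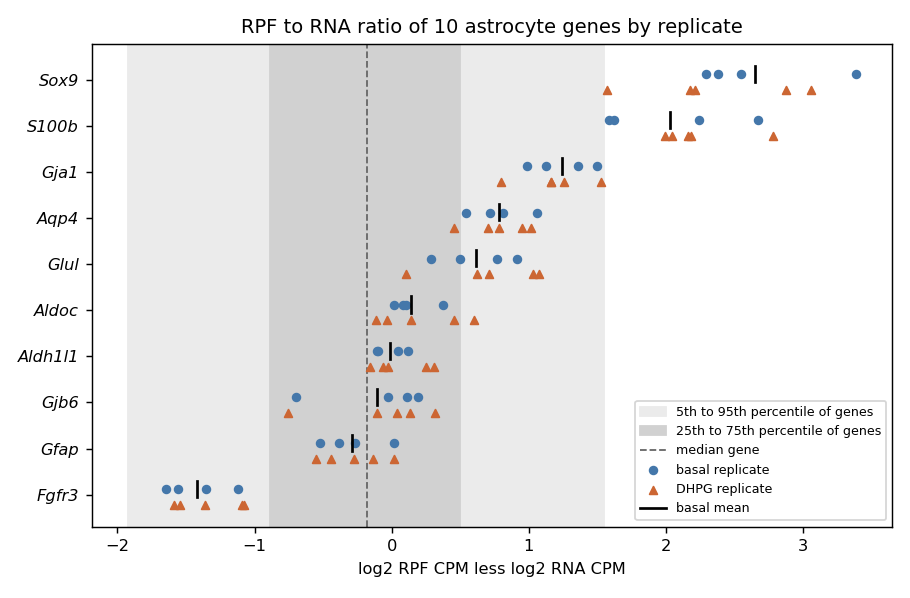
RPF to RNA ratio of the 10 genes (log2 RPF CPM less log2 RNA CPM, horizontal axis), with basal replicates as blue points, DHPG replicates as orange triangles and the basal mean as a black bar. Grey bands mark the middle of the distribution over all genes. Sox9 and S100b lie beyond the 95th percentile of 1.55 on average, and Fgfr3 is the lowest.

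After DHPG for 5 min the 10 genes differed little from basal slices in either assay, with Sox9 RNA the widest departure. In RNA, 0 of the 9 members counted, with Sox9 left out, passed an adjusted p of 0.01 in edgeR, where 0.00773% of 12935 genes passed. An unadjusted p under 0.05 was found for 1 of the 9 (Gja1), against 8.02% of all genes, and DESeq2 with the replicate block also called 0 of 9. In RPF, 0 of 9 passed an adjusted p of 0.05 in edgeR, where 0.22% of 13208 genes passed. Here 4 of 9 (Aqp4, Gja1, Gjb6 and Fgfr3) had an unadjusted p under 0.05, against 10.8% of all genes, each with a higher value after DHPG, as in 6.55% of all genes. DESeq2 with the block called 1 of 9, Gja1, but gave no adjusted p for Aldh1l1, Gjb6, S100b and Fgfr3. Sox9 is left out of these counts because its RNA values in particular were known when the genes were listed. The other 9 were also chosen with earlier results of these data known, so all counts of the 9 with DHPG are description only.

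All 10 fitted changes in RPF were above 0, from 0.01 to 0.13 on the log2 scale (median 0.08), while the median of all genes tested was 0.003. The sign turned for 5 of them (Gfap, Aldh1l1, S100b, Aldoc and Glul) when at least 1 replicate was left out. In RNA, 5 of the 9 genes other than Sox9 were above 0 (median 0.03, all genes 0.007). Within single pairs of replicates, between 5 and 9 of the 10 genes had more RPF after DHPG, and between 4 and 9 had more RNA, Sox9 among them in every RNA pair. Without Sox9, the median RNA difference was below 0 in replicate 3 (-0.02) and replicate 4 (-0.08), so the direction was not shared by every pair.

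Sox9 had 15.4, 17.7, 19.9 and 12.6 CPM of RNA in basal replicates 1 to 4, and 23.9, 21.8, 24.7, 22.6 and 16.5 after DHPG in replicates 1 to 5. All 4 DHPG libraries with a basal partner lay above every basal library, and the unpaired DHPG library of replicate 5 lay within the basal range. The pairs differed by 0.63, 0.30, 0.31 and 0.83 on the log2 scale. The fitted log2 fold change was 0.53 (standard error 0.12), larger than that of 99.5% of genes tested, and it is given without a test because the gene was chosen with this value in view. These libraries held 86 to 185 counts of Sox9 each. Without replicate 4 the fold change was 0.42, and without the replicate block it was 0.42.

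In RPF, Sox9 was at 76.5, 93.8, 118, 135 and 125 CPM in basal replicates 1 to 5 and at 71.8, 100.2, 116, 168 and 139.6 after DHPG. The basal range lay within the DHPG range, and libraries of one replicate number were close together whatever the treatment. Of 5 pairs, 3 were higher after DHPG, and the fitted log2 fold change was 0.11 (standard error 0.041), or 0.05 without replicate 4. The fitted change of the RPF to RNA ratio was -0.43 (standard error 0.12), lower than that of all but 2.24% of genes. The ratio itself was 1.57, 2.18, 2.21, 2.87 and 3.06 in DHPG replicates 1 to 5, within or below the basal values of 2.29 to 3.39. Sox9 lies on chromosome 11 of mm10 from 112782224 to 112787760 on the plus strand.

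The gap junction gene Gja1 had the smallest adjusted p among the other members. Its RNA was 163, 138, 141 and 133 CPM in basal replicates 1 to 4, and 202, 152, 149, 147 and 155 after DHPG. Each of the 4 pairs was higher after DHPG, as in 8.67% of genes, and the groups overlapped because basal replicate 1 exceeded 4 of the DHPG libraries. This was a log2 fold change of 0.17 (± 0.071 standard error, edgeR adjusted p = 0.573).

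In RPF, Gja1 had 323, 355, 399.9, 290.4 and 316 CPM in basal slices and 351, 364, 432, 331 and 348 after DHPG. All 5 pairs were higher after DHPG, as in 5.16% of genes, by 0.03 to 0.19, while the groups overlapped widely. The fitted log2 fold change was 0.12 (± 0.030 standard error, edgeR adjusted p = 0.0876), which missed the threshold. It passed with DESeq2 and the block (adjusted p = 0.0431) and with no filter on low counts in edgeR (adjusted p = 0.0388). It also passed with DESeq2 after ComBat keeping a treatment term (adjusted p = 4.94e-06) or lacking it (0.00546). With any replicate left out it missed (edgeR adjusted p from 0.0944 to 0.313). It also missed in edgeR with at least 10 counts in every library (adjusted p = 0.0783), with DESeq2 size factors (0.0877) and without the replicate block. The gene lies on chromosome 10 from 56377330 to 56402513.

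Gjb6, the connexin that shares astrocyte junctions with Gja1, had 37.3, 41.2, 38.1 and 38.3 CPM of RNA in basal slices and 40.5, 43.3, 34.5, 44.4 and 40.4 after DHPG. Its RPF was 23.0, 40.6, 41.3, 43.9 and 33.7 CPM in basal slices and 24.0, 40.4, 43.1, 49.0 and 41.7 after DHPG. Replicate 1 was low in RPF under both treatments, though not in RNA, and 4 of 5 RPF pairs were higher after DHPG. In RPF its log2 fold change was 0.11 (± 0.051 standard error, edgeR adjusted p = 0.409). Gjb6 lies on chromosome 14 from 57123303 to 57133611.

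The water channel gene Aqp4, on chromosome 18, had the most even basal RNA of the 10 genes, at 119, 119.5, 118 and 113 CPM, with 122, 119, 133, 105 and 150.0 after DHPG. In RPF it had 209, 197, 245, 164 and 196 CPM in basal slices and 247, 205, 259, 171 and 206 after DHPG. All 5 RPF pairs were higher after DHPG, by 0.05 to 0.24, within overlapping groups. This gave a log2 fold change in RPF of 0.09 (± 0.033 standard error, edgeR adjusted p = 0.261), and in RNA it was 0.03 (0.073).

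Fgfr3 had 179.7, 220.3, 269.8 and 178 CPM of RNA in basal slices and 221, 205, 265, 202 and 194 after DHPG. Its RPF was 70.2, 74.7, 86.3, 81.8 and 79.2 CPM in basal slices and 73.4, 79.6, 90.9, 95.7 and 91.0 after DHPG. The RNA pairs were split, 2 higher and 2 lower, whereas all 5 RPF pairs were higher, by 0.06 to 0.23. The log2 fold change in RPF was 0.13 (± 0.039 standard error, edgeR adjusted p = 0.148), which missed the threshold, and in RNA it was 0.09 (0.073). Fgfr3 lies on chromosome 5 from 33721674 to 33737068, where 998 bases of its exons are shared with G630022F23Rik on the other strand, and use of strand in the counting is not given in the sources used here.

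S100b, with the fewest RNA counts among the 10 (55 to 160 in each library), had 17.3, 11.3, 13.0 and 22.6 CPM of RNA in basal slices and 13.8, 16.3, 10.9, 14.1 and 14.8 after DHPG. Basal libraries thus spread more widely than DHPG libraries and enclosed all of them but 1. On the log2 scale the RNA difference was -0.25 (± 0.15 standard error, edgeR adjusted p = 0.677), with 3 of 4 pairs lower and replicate 2 higher by 0.51, and it was -0.06 without replicate 4 and -0.44 without replicate 2 (edgeR adjusted p = 0.111). The RPF of S100b was steadier, at 54.0, 74.0, 62.8, 68.5 and 63.6 CPM in basal slices and 58.2, 74.0, 77.1, 65.2 and 60.1 after DHPG. Its log2 fold change in RPF was 0.06 (± 0.046 standard error, edgeR adjusted p = 0.677), and that of the ratio was 0.32 (± 0.15 standard error, edgeR adjusted p = 0.752), going to 0.16 without replicate 4 and to 0.52 without replicate 2. S100b lies on chromosome 10 from 76253853 to 76261159.

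The filament gene Gfap, the usual marker of reactive astrocytes, had 414 to 545 CPM of RNA in basal and 455 to 583 in DHPG libraries. Its RPF was 369.9 to 480.4 CPM in basal and 374 to 492 in DHPG libraries, and the ranges of the groups overlapped widely in both assays, with 3 of 4 RNA pairs and 3 of 5 RPF pairs higher after DHPG. The log2 fold change was 0.06 in RNA (95% interval -0.07 to 0.19) and 0.01 in RPF (-0.05 to 0.07). Gfap lies on chromosome 11 from 102887336 to 102900912.

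The enzymes of the list were equally close between treatments. Glul had 1319.5 to 1600.3 CPM of RNA in basal and 1377 to 1535 in DHPG libraries, and 1797 to 3011 CPM of RPF in basal and 1653 to 3176 in DHPG libraries. Its log2 fold change was -0.01 in RNA (95% interval -0.14 to 0.11) and 0.02 in RPF (-0.04 to 0.08). Aldoc had 967 to 1179 CPM of RNA in basal slices and a narrower 1040.0 to 1085 after DHPG, and 1024 to 1531 and 959 to 1610.4 CPM of RPF. Its log2 fold change was -0.02 in RNA (-0.15 to 0.11) and 0.01 in RPF (-0.05 to 0.06).

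Aldh1l1 had 88.4 to 108 CPM of RNA in basal and 87.8 to 100.2 in DHPG libraries, with 84.0 to 113 and 85.3 to 119 CPM of RPF. Its log2 fold change was -0.04 in RNA (95% interval -0.19 to 0.10) and 0.00 in RPF (-0.07 to 0.08). These 3 genes lie on chromosome 1 from 153899944 to 153909723 (Glul), on chromosome 11 from 78322968 to 78327781 (Aldoc) and on chromosome 6 from 90486427 to 90600203 (Aldh1l1). Aldh1l1 shares 499 exon bases with the antisense gene Gm15756, and Glul shares 116 with Teddm2 on the other strand.

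For a change of the RPF to RNA ratio with DHPG, 0 of the 9 members counted, with Sox9 left out, passed an adjusted p of 0.05. This was in edgeR, where 0% of 13320 genes passed. An unadjusted p under 0.05 was found for 1 of the 9 (S100b), against 6.54% of genes, and limma on the log2 differences called 0 of 9. The fitted changes of the other 8 genes lay between -0.06 and 0.07.

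**Figure D3:**
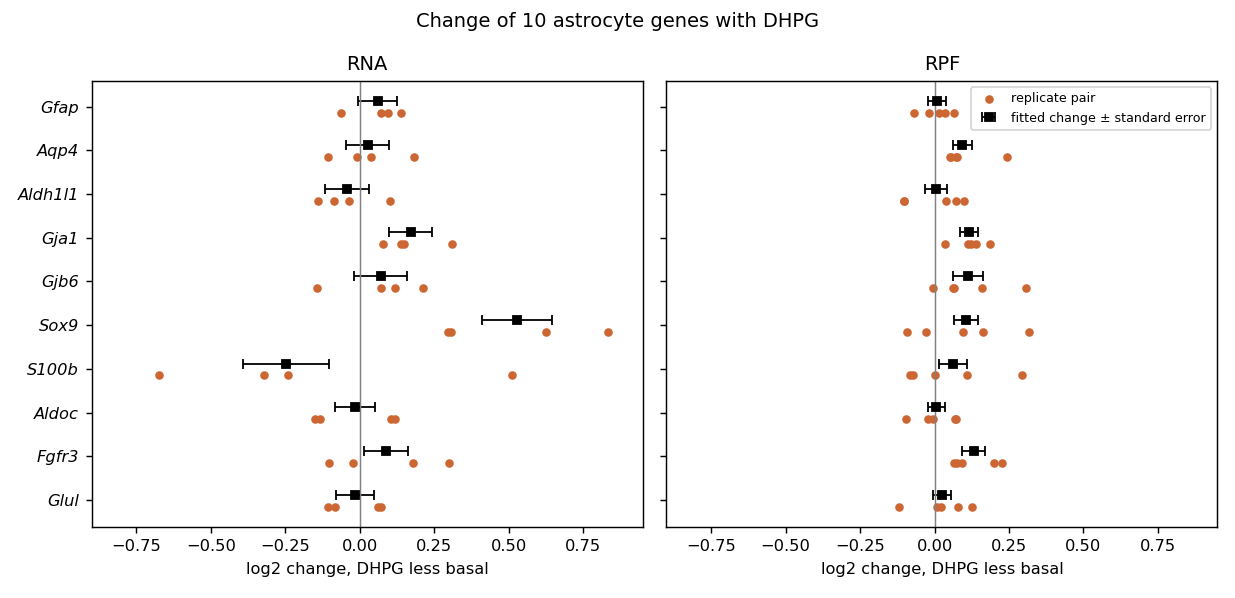
Change with DHPG of the 10 genes in RNA (left) and RPF (right), as log2 DHPG less log2 basal. Black squares are fitted changes with standard errors and orange points are replicate pairs. Sox9 RNA lies at 0.53 with all 4 pairs above 0, and the RPF changes of the 10 genes lie between 0.01 and 0.13.

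The 2 assays differed in how evenly the genes were measured from replicate to replicate. In basal RNA the SD of log2 CPM over replicates had a median of 0.14 over the 10 genes, against 0.26 over all genes tested. In basal RPF it was 0.19, against 0.15 over all genes. The lowest SD in basal RNA was that of Aqp4 at 0.04, followed by Gjb6 at 0.06. That of Aqp4 was below all but 0.861% of 1510 genes of like level (mean within 0.5 on the log2 scale). After DHPG the SD of Aqp4 RNA was 0.19. S100b had the widest spread in basal RNA, 0.44, above 83.0% of 2115 genes of like level, and 0.21 after DHPG.

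In RPF the same measure picked out other genes. Gjb6 had an SD of 0.38 over basal replicates, above 99.4% of 2386 genes of like level, and Sox9 had one of 0.33, above 99.1% of 1443 genes. Glul (0.28) and Aldoc (0.26) followed. Gjb6 was thus among the evenest genes of like level in basal RNA, though not after DHPG (SD 0.14), and among the least even in basal RPF.

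This spread in RPF followed the replicate number and was shared by basal and DHPG libraries. Replicate number accounted for 72.5% (Fgfr3) to 98.6% (Aldoc) of the variance of log2 RPF CPM of each gene, with a median of 94.3% against 72.4% over all genes tested. Treatment accounted for 0.001% (Aldh1l1) to 21.8% (Fgfr3), with a median of 2.02%. The SD left after both had a median of 0.061 in RPF and 0.094 in RNA. In RNA, treatment accounted for more of the variance than replicate number only for Sox9, at 67.7% against 19.4%. That gene was listed with its RNA change in view. The RNA shares and the SD left in RNA leave out the DHPG library of replicate 5, which has no basal partner. In that library Sox9 was at 16.5 CPM, within the basal range.

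Replicate 1 was low and replicate 4 high in RPF for several members at once. Summed over the 10 genes, RPF was 4087 CPM in basal and 3937 CPM in DHPG libraries of replicate 1, and 5842 and 6171 CPM in those of replicate 4. Glul and Aldoc weighed most in these sums, at 1797 and 1024 CPM in basal replicate 1 and 3011 and 1531 CPM in basal replicate 4. Glul, Aldoc and Sox9 were lowest in replicate 1 and highest in replicate 4 under both treatments. Aqp4 and Gja1 had the opposite extreme, with their lowest RPF in replicate 4 under both treatments. In RNA the sum of the 10 genes kept to the narrower range of 3473 to 3868 CPM. Basal replicates 1 and 4 were again its lowest and highest, while after DHPG replicate 1 (3749 CPM) was above replicate 4 (3672 CPM). Depth differed alongside, since the RPF libraries of replicate 1 were the shallowest, with 6500934 and 5692064 counts, and those of replicate 4 held 8328372 and 10515603. The neuronal markers summed to 12974 and 13127 CPM of RPF in replicate 1 and to 13569.9 and 13575 in replicate 4. The part of depth and of tissue makeup in these differences was not tested.

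**Figure D4:**
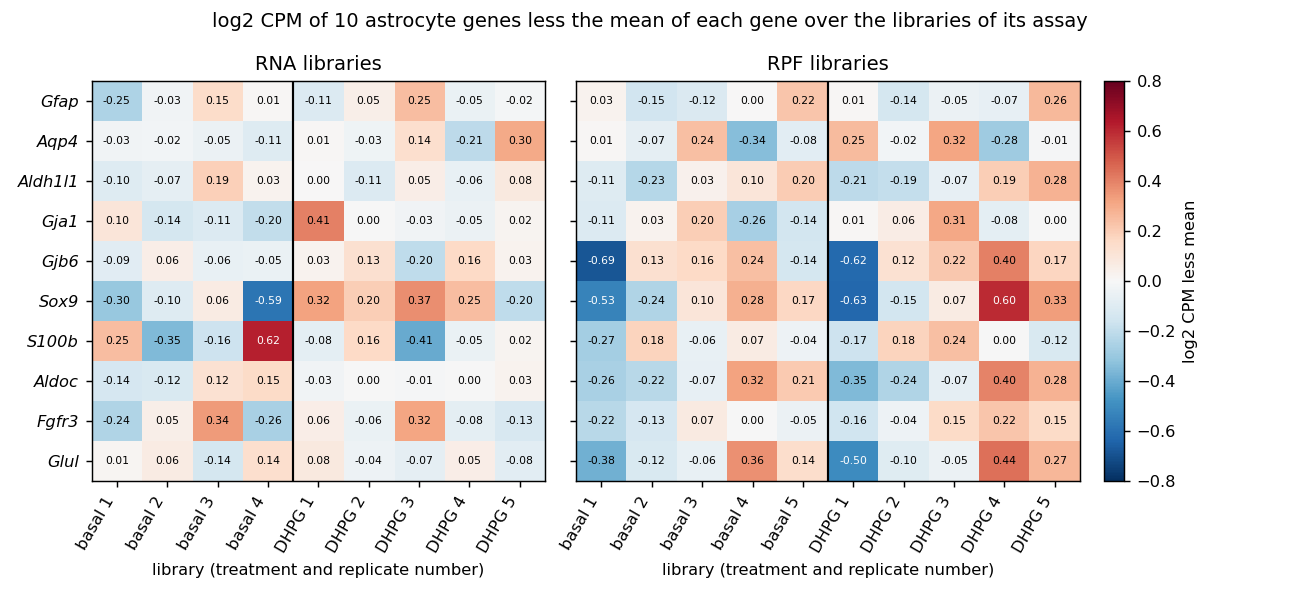
log2 CPM of the 10 genes (rows) in each library (columns), less the mean of the gene over the libraries of its assay, from blue (low) to red (high), with the value written in each cell. Basal and DHPG libraries of one replicate number look alike in RPF, where replicate 1 is low for Gjb6 (-0.69 and -0.62) and Sox9 (-0.53 and -0.63), and Sox9 RNA differs between treatments.

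To see which other genes behaved like the members over the RPF libraries, the mean of their centred log2 profiles over the 10 libraries was compared with the profile of each gene tested in both assays. The 10 genes nearest by root mean square difference were Phlpp1 (0.045), Ctnnd1, Maf, Add3, Nup214, Zhx2, Ube3b, Dtna, Elmod3 and Supt7l (0.066). None of them is in the gene lists used here. Dtna encodes dystrobrevin alpha, part of the dystrophin complex that anchors Aqp4 at the end-feet, and Ctnnd1 encodes p120 catenin of adherens junctions. Among the members, compared with the mean of the other members, Fgfr3 was the nearest (0.060) and Aqp4 the farthest (0.319), with 86.6% of genes nearer than Aqp4. The members thus did not share one profile.

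Other genes of astrocytes had RPF changes above 0 more often than below, and 4 passed the threshold. These genes, and the markers of other cell types below, were chosen with earlier results of these data known. Their shares are given as description only. Lists of 107 further astrocyte genes, grouped by role, had 104 members tested in RPF, of which 82 had a fitted change above 0 (78.8%, against 51.4% of all genes) with a median of 0.05. These 4 passed an adjusted p of 0.05 in edgeR, all higher after DHPG, where 0.22% of genes passed, and DESeq2 with the block called 7. In RNA 83 of 103 were above 0 (80.6%, against 52.1% of all genes, median 0.08), and 0 passed an adjusted p of 0.01 in edgeR, with 15 at an unadjusted p under 0.05 (8.02% of all genes) and 0 called by DESeq2 with the block. Of the 4 RPF calls, that of Mt2 alone held with each replicate left out in turn. Mt1 fell short without replicate 2 (edgeR adjusted p = 0.0735), Kcnj10 without replicate 1, 2 or 4 (up to 0.329) and Sparcl1 without replicate 1, 2, 4 or 5 (up to 0.298), and none of the 4 passed without the replicate block.

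Among 19 transporters and channels, Kcnj10, the potassium channel that buffers extracellular potassium, rose in RPF from 183 ± 22.4 to 204 ± 17.2 CPM (SD, n = 5 each), a log2 fold change of 0.16 (± 0.034 standard error, edgeR adjusted p = 0.0252), higher in 5 of 5 pairs. Slc1a2, the main glutamate transporter of astrocytes, was by far more abundant at 3353 ± 257 CPM, and its change was 0.05 (± 0.029 standard error, edgeR adjusted p = 0.489). In RPF 16 of the 19 were above 0, with a median of 0.06.

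Among 23 genes of metabolism and metal handling, the metallothioneins Mt1 and Mt2, which bind zinc and copper, rose in RPF. Mt1 went from 499 ± 89.7 to 575 ± 109 CPM (SD, n = 5 each; log2 fold change 0.20 ± 0.034 standard error, edgeR adjusted p = 0.00128). Mt2 went from 356 ± 43.2 to 406 ± 40.8 CPM (0.19 ± 0.031 standard error, edgeR adjusted p = 0.000796). They are close relatives in sequence, so the split of reads between them is uncertain. Ndrg2 and Ldhb, the most abundant of the list, were at 0.01 and 0.02.

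The 14 secreted proteins included Sparcl1, or hevin, a matrix protein that acts at synapses, which rose in RPF by a log2 fold change of 0.13 (± 0.029 standard error, edgeR adjusted p = 0.0357), higher in 5 of 5 pairs. Clu (clusterin) was at 0.09 (0.030, adjusted p = 0.209 in edgeR). Of 21 adhesion and surface proteins tested, all were above 0 in RPF (median 0.09) and none was called in edgeR, with 12 at an unadjusted p under 0.05 (10.8% of all genes) and 2 called by DESeq2 with the block, which called 28 of 13208 genes. The most abundant of them were Ptprz1 at 0.09 and Bcan at 0.13.

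The other transcription factors of astrocytes, 14 in number, had larger fitted changes in RNA than in RPF. In RNA 13 of 14 had a fitted change above 0 (median 0.17), against 52.1% of all genes, while in RPF 8 of 14 did (median 0.003, against 51.4% of all genes), and 1 of 14 had a ratio change above 0 (median -0.12, against 49.4% of all genes). None was called in any of these in edgeR, with 6 at an unadjusted p under 0.05 in RNA (8.02% of all genes), 1 in RPF (10.8%) and 3 in the ratio (6.54%), and DESeq2 with the block (limma for the ratio) also called 0. Nfib and Nfia, the most abundant, were at 0.08 and 0.15 in RNA and at -0.01 and 0.01 in RPF. Filament and reactive genes had a median of -0.03 in RPF over 13 genes, 5 of them above 0, and Lcn2 and Steap4, which mark strongly reactive astrocytes, were under 1 CPM in both assays.

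Markers of other cell types were followed in the same way. In RPF all 15 microglial markers and 12 of 15 oligodendrocyte markers were above 0 (51.4% of all genes), with medians of 0.09 and 0.11. All 9 markers of oligodendrocyte precursors were also above 0, with a median of 0.09. Mag of the oligodendrocyte list was the 1 gene of these past the threshold (0.22% of all genes), though not with DESeq2 and the block. It also missed without the block and without replicate 1, 2 or 4. The 15 neuronal markers had a median of 0.01, and 13 of 15 endothelial and mural markers were below 0 (median -0.12). Summed oligodendrocyte markers covered 5147 to 10505 CPM in basal and 5966 to 11972 in DHPG RPF libraries. Whether the makeup of the tissue has a part in the small shifts of the astrocyte genes was not tested.

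**Figure D5:**
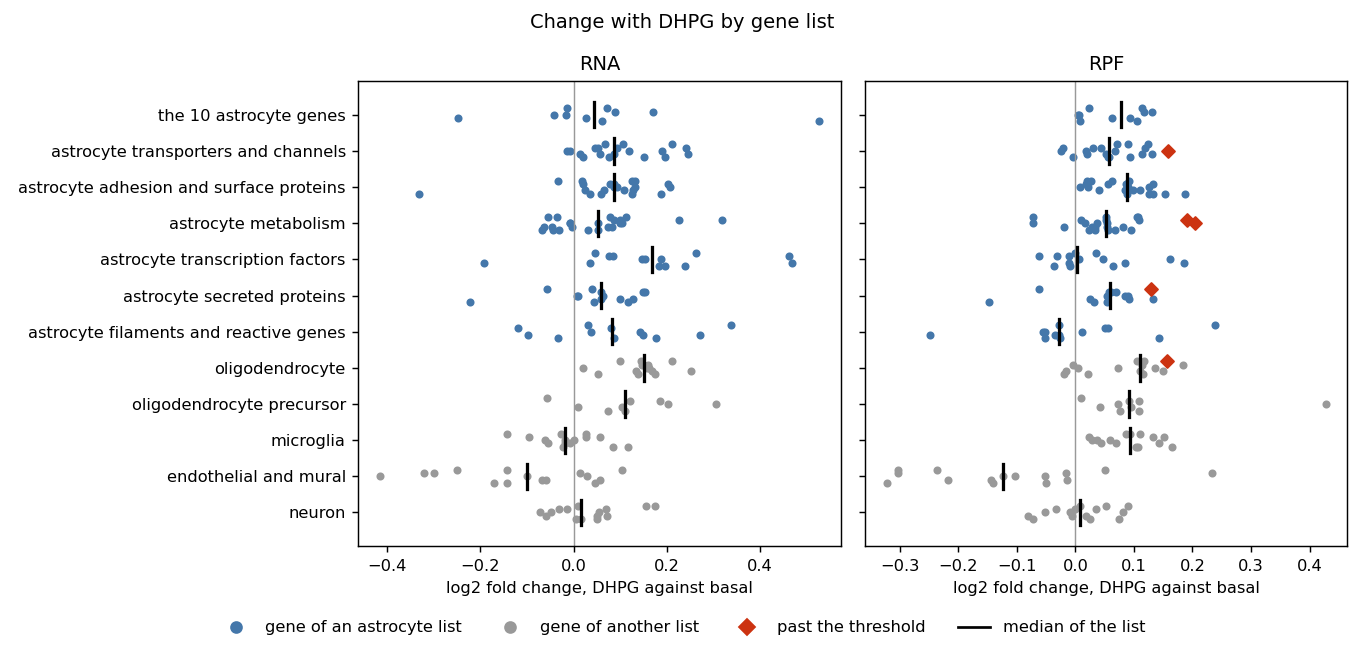
Log2 fold change with DHPG of each gene tested, by gene list, in RNA (left) and RPF (right), astrocyte lists in blue and other cell types in grey. Black bars are list medians and red diamonds are genes past the threshold. The 4 astrocyte genes past it in RPF are Kcnj10, Mt1, Mt2 and Sparcl1, and the medians of the RPF lists lie between -0.12 and 0.11.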

How the data were processed

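The members and gene lists were chosen with earlier results of these data known. Reads not mapping to rRNA or tRNA were aligned to mm10 with TopHat2, uniquely mapped reads were kept and duplicates were dropped by their molecular identifiers. From these the authors deposited RSEM expected counts without normalization, for RPF on coding sequences without 30 bases at each end and for RNA on whole transcripts. Values were rounded to whole counts here. In all, 12 columns of the tables belong to no sample of this series and were not used.

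The tools were edgeR 4.0.16, DESeq2 1.42.0, limma 3.58.1 and sva 3.50.0 in R 4.3.3. DHPG was compared with basal by the quasi-likelihood test of edgeR with TMM normalization, filterByExpr, replicate number as a block and p-values adjusted by Benjamini-Hochberg over the genes tested (thresholds 0.01 in RNA and 0.05 otherwise). Changes of the RPF to RNA ratio were tested as an interaction in one edgeR model over all 19 libraries. Replicate numbers paired the samples: deviations from the group means correlated by 0.31 to 0.74 in RNA and 0.26 to 0.52 in RPF. No library was a duplicate of another. Log2 CPM used a prior count of 2. Lengths, positions and start codons came from GENCODE for mm10, with 96% of symbols matched. Genes were named by rule: the members, the 2 most abundant genes of each wider astrocyte list with any past a threshold, and the 10 genes of nearest profile. A gene that this rule names is not reported here. In simulated data with 200 genes changed by 0.5 on the log2 scale, edgeR called 62.1% of the changed RNAs (of 12904 genes), 83.9% of the changed RPFs (of 13200) and 51.5% of the changed ratios (of 13385). The simulation gave every gene the same dispersion. Its change exceeded the fitted DHPG change of every member other than Sox9, so these rates do not apply to changes as small as theirs. The alternatives were DESeq2 size factors, other filters on low counts, no block, DESeq2, ComBat by replicate then DESeq2, limma for the ratio, other thresholds and scales, and each replicate left out.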

Additional observations from a re-analysis of the deposited data

Results flagged for a closer look

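In 2 of 64 groups of libraries screened, 1 library stood far from the rest by Dixon's criterion, which by chance flags about 3.2 of so many. Gja1 RNA was 202 CPM in the DHPG library of replicate 1, where the other DHPG libraries held 147 to 155 CPM. The basal library of replicate 1 was also the highest of its group, at 163 CPM, and without replicate 1 the log2 fold change of Gja1 RNA was 0.11 in place of 0.17. The log2 RPF to RNA ratio of S100b was 2.78 in DHPG replicate 3, where the other DHPG replicates lay between 1.99 and 2.19. Its RNA was lowest in that library of all 9 (10.9 CPM) and its RPF the highest of all 10 (77.1 CPM).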

How the results depend on the processing

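Low counts limit Sox9 and S100b in RNA, and with 4 or 5 pairs only changes well above the spread of pairs can be called. The count of members past the RPF threshold (0 of 9) became 1 with no filter on low counts, with DESeq2 and the replicate block and with ComBat lacking a treatment term then DESeq2 (Gja1 each time), and 3 with ComBat keeping that term then DESeq2 (Gja1, Aqp4 and Fgfr3). In these RPF counts DESeq2 gave no adjusted p for Aldh1l1, Gjb6, S100b and Fgfr3 with the block. It gave none for Gjb6, S100b and Fgfr3 with ComBat lacking the term, and none for Gjb6 with ComBat keeping it. Without the replicate block 0 of 9 passed in RNA, RPF or the ratio. Of the basal ratio calls only that of Aldoc was then lost (edgeR adjusted p = 0.0628). Over all genes, calls in RNA went from 1 to between 0 and 102, in RPF from 29 to between 0 and 429 and in the ratio from 0 to up to 8, with the top counts of RNA and RPF under ComBat.
Leaving out a replicate gave 0.42 to 0.61 for Sox9 RNA, 0.0134 to 0.0476 for the median change in RNA and 0.0597 to 0.0932 for that in RPF. It gave 0.139 to 0.154 for the median SD in basal RNA (0.143 with all). Of the basal ratio calls only that of Aldoc was lost, without replicate 1, 2 or 4.
With a replicate left out, signs turned only for changes near 0 that had passed no test: in RNA Aqp4 (-0.0261 to 0.069), Aldoc (-0.063 to 0.0273) and Glul (-0.0465 to 0.0159), in RPF Gfap (-0.0073 to 0.0269), Aldh1l1 (-0.018 to 0.0398), S100b (-0.0228 to 0.0965), Aldoc (-0.0113 to 0.027) and Glul (-0.0022 to 0.0563), in the change of the ratio Gjb6 (-0.0151 to 0.0904), Aldoc (-0.0358 to 0.0857) and Fgfr3 (-0.0099 to 0.126), and in the basal ratio Gjb6 (-0.0166 to 0.272). The ratio change of Aqp4 turned with no replicate block (-0.0039), and the basal ratio of Aldh1l1 turned per length (-0.68). The cause was not tested. ComBat without a treatment term, and levels and spread without each replicate, were chosen after seeing the data.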
